A study of Mus musculus with 9 samples.

Results

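The solute carrier genes encode the largest superfamily of membrane transporters, and their messenger RNA was measured here in the lungs of mice that carried extra copies of CFTR. Members were the probe sets whose annotation gave exactly 1 gene symbol of the form Slc, a number, the letter a and a number. The genes Slc34a2, Slc26a6, Slc12a2, Slc40a1, Slc11a2, Slc25a15 and Slc20a2, with 14 probe sets, were left out. This left 364 probe sets of 231 genes in 47 families, among 22690 probe sets in all and 12393 genes with a probe set of 1 symbol. The rule itself uses names only. A filter on low signal, applied to every probe set alike, kept 200 of the 364, which stood for 137 genes in 41 families. Differences below were tested for these 200, and the other 164 are accounted for by their carrier class.

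All mice were adults of the inbred strain FVB/N and, where a genotype is given, kept both alleles of their own Cftr gene (mCftr+|+). HO mice carried 2 alleles and HE mice 1 allele of SP-C-hCFTR, a normal human CFTR cDNA placed behind the promoter of the surfactant protein C gene, which is active in respiratory epithelial cells. WT mice carried none, and the label of WT replicate 3 gives the strain and the group alone. Each group held 3 Affymetrix arrays of total lung RNA. HO replicate 2 was titled HO and listed with 2 alleles, but its description gives 1. The labels do not say whether each array came from its own animal, so the p-values measure only the spread between these samples, which may be technical. In RNA from whole lung, fewer cells of a type and less RNA per cell cannot be told apart.

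Solute carriers move ions, nutrients, vitamins, metals and metabolites across the plasma membrane and the membranes of mitochondria, the Golgi apparatus and lysosomes. They work by exchange, by cotransport with sodium, protons or chloride, or by facilitated diffusion, and are numbered into families by sequence. In airway and alveolar epithelium, CFTR conducts chloride and bicarbonate beside anion exchangers of the Slc26 and Slc4 families. Epithelial cells of the lung also use carriers to take up peptides, amino acids and zinc from the airway surface.

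The promoters of 4 members are shown because a short motif was found at different rates in front of carriers that passed the filter and carriers that did not. Slc19a1 encodes the reduced folate carrier and Slc1a4 an exchanger of neutral amino acids such as serine. Both passed the filter and had a probe set at an unadjusted p under 0.05 in HO against WT. Slc5a1 encodes a sodium and glucose cotransporter and Slc7a11 the cystine and glutamate exchanger. Both were on a list of carriers described in lung, but no probe set of either passed. Each sequence is the 250 bases before the gene's first RefSeq start in assembly GRCm38.p6, written 5′ to 3′ on the strand of the gene. Capitals mark matches to the motifs described after the sequences. The windows lie at chr10:77032489-77032738 on the plus strand for Slc19a1, chr11:20332714-20332963 on the minus strand for Slc1a4, chr5:33103969-33104218 on the plus strand for Slc5a1 and chr3:50443614-50443863 on the minus strand for Slc7a11.
Slc19a1: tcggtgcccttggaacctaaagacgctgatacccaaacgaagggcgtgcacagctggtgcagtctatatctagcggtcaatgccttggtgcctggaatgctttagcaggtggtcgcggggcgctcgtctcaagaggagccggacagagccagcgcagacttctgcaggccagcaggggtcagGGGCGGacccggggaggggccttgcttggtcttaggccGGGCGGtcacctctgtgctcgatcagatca
Slc1a4: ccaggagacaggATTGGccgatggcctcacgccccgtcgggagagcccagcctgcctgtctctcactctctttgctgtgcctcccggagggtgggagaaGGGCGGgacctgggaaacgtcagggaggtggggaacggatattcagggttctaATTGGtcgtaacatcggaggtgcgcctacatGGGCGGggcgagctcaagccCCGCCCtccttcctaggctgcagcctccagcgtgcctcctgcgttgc
Slc5a1: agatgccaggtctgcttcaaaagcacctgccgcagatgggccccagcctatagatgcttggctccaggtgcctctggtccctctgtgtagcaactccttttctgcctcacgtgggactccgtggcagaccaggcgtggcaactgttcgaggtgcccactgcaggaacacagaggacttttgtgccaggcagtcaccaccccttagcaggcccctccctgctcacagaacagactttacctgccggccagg
Slc7a11: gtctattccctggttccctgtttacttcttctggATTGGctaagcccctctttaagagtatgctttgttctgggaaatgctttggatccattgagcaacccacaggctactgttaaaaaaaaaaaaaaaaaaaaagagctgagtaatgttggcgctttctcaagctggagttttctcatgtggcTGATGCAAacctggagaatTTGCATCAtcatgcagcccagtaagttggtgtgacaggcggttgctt

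The motifs were the GC box (GGGCGG), the CCAAT box (CCAAT), the TATA box (TATAAA) and the core of the amino acid response element (TGATGNAA). Each was searched for on its own and on both strands, so a base shared by different motifs would count for each. The window of Slc19a1 held 2 GC boxes, and that of Slc1a4 held 3 GC boxes and 2 CCAAT boxes. Slc5a1 had no match to any of the 4 motifs. Slc7a11 had 1 CCAAT box and 2 matches to the amino acid response core, 1 on each strand, and no GC box. Other members went against this contrast in GC boxes. Slc6a4, the other carrier of the lung list that was measured and did not pass, held 3 GC boxes. The amino acid carrier Slc7a6, which passed, held 0.

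A GC box was more frequent in front of carriers that passed the filter. Of the 231 genes, 180 had a window in the RefSeq table. Among these, 72 of 104 carriers that passed held a GC box (69.2%), against 26 of 76 that did not (34.2%). The direction was that of the array as a whole, with 60.6% of 6619 genes that passed and 38.0% of 3269 that did not, and 32.7% of all 32851 windows in the table. The CpG ratio, observed over expected from base composition, exceeded 0.6 in 58.7% of carriers that passed and 27.6% of those that did not. Over all genes these shares were 68.2% and 35.2%. A TATA box stood in 5.77% of the windows of carriers that passed, 11.8% of those that did not and 12.4% of all windows. A CCAAT box stood in 36.5%, 27.6% and 33.8% of the same sets. Over all genes on the array, a TATA box stood in 6.90% of those that passed and 13.7% of those that did not. For the CCAAT box these shares were 35.3% and 36.6%, without the gap seen among carriers. The amino acid response core was rare: 5 carriers held it, Slc7a11, Slc7a7, Slc50a1, Slc17a1 and Slc23a3, and 3.45% of all windows did. These shares are descriptions, since passing the filter also depends on how well each probe set binds.

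Among classes with 5 or more probe sets, carriers of metals and of mitochondria passed the filter at the highest rates, and phosphate, sulfate and carboxylate carriers at the lowest. In the metal class, which holds the zinc families Slc30 and Slc39 and the copper family Slc31, 29 of 34 probe sets passed (85.3%). Of the probe sets of the mitochondrial family Slc25, 50 of 63 did (79.4%). Next came the vitamin, choline, haem and urea carriers with 18 of 29 (62.1%), the amino acid and peptide carriers with 32 of 53 (60.4%), the nucleotide sugar carriers with 9 of 16 (56.3%) and the Slc6 family of neurotransmitter and osmolyte carriers with 10 of 18 (55.6%). Among the lower shares, 15 of 37 probe sets of sugar carriers passed (40.5%), 7 of 22 of the bicarbonate and anion families (31.8%), 9 of 30 of the organic ion and bile acid families (30%), 2 of 11 of the vesicular and lysosomal families (18.2%) and 1 of 9 of the phosphate, sulfate and carboxylate families (11.1%). Over all probe sets the filter kept 60% by its construction. The families Slc13, Slc28, Slc32, Slc33, Slc34 and Slc47 had no probe set that passed. Within the sugar class, 8 of 15 probe sets of the facilitative family Slc2 passed, against 1 of 12 of the sodium-coupled family Slc5. Classes were assigned by whole family, so a class name need not hold for each of its genes.

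**Figure D1:**
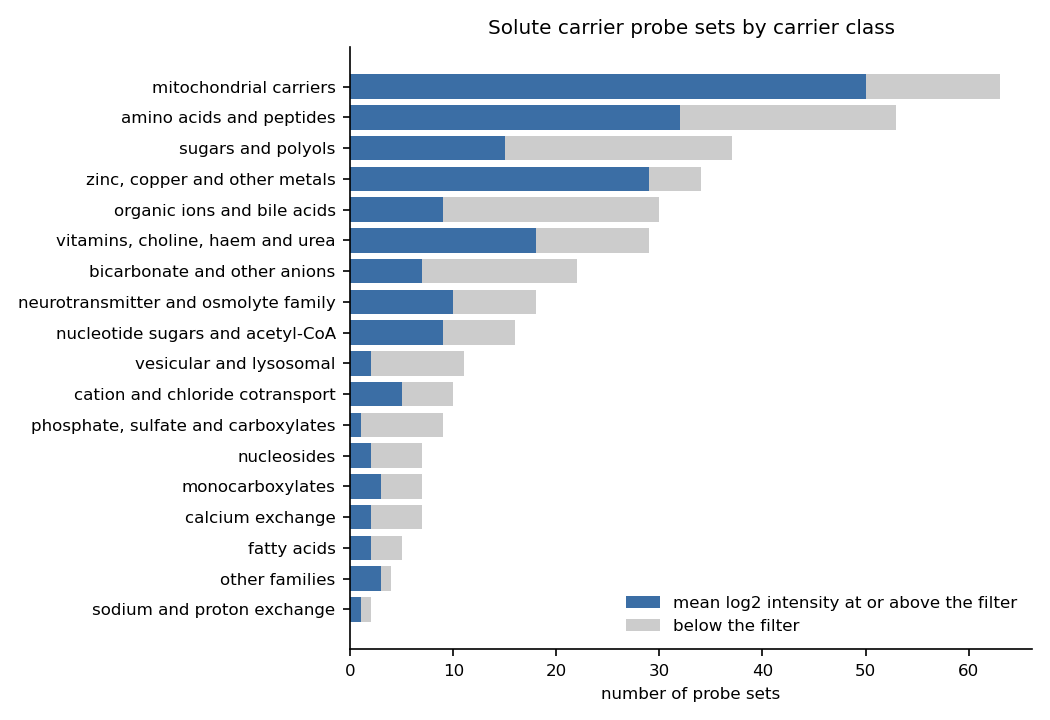
Number of solute carrier probe sets in each carrier class (horizontal axis, count), split into those whose mean log2 intensity over the 9 arrays was at or above the filter (blue) and below it (grey). Of the mitochondrial carrier probe sets 50 of 63 lay at or above the filter, and of the organic ion and bile acid probe sets 9 of 30.

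Median log2 intensities of the 9 arrays, which had been scaled to a common mean, lay between 9.45 and 9.54. The precision of the differences rests on 3 arrays a group and on the spread within groups. Markers of lung cell types were measured throughout: 6 of 7 markers of alveolar type II cells were on the array, as were all 5 of alveolar type I cells, all 5 of club cells and all 6 of endothelial cells, and all of these passed the filter. Of the 5 ciliated cell markers, 3 were on the array and passed. No list had a marker at the floor on every array. A difference between groups had a median standard error of 0.17 (log2) over the members, with a 95% interval of 0.37 on either side. The spread within groups had a median SD of 0.22 (log2) over the 200 members and 0.20 over all 13576 probe sets tested. It differed widely among carriers, with the highest SD (0.65) at one probe set of Slc31a2, a copper transporter of intracellular membranes, and the lowest (0.077) at Slc25a51, a mitochondrial carrier of NAD chosen, like other genes of extreme rank, after its values were seen.

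With 2 transgenic alleles, the leading carriers stood between 0.738 and 1.46 times their WT signal, and none passed the test. The leading genes were Slc37a4, which carries glucose 6-phosphate into the endoplasmic reticulum, Slc1a4, Slc43a3, a carrier of purine bases, and Slc19a1, all higher in HO, and Slc18a1, a vesicular monoamine transporter, lower in HO. No member had an adjusted p under 0.05 in HO against WT (lowest adjusted p = 0.992, limma), and neither did any of the 13576 probe sets (0%). At an unadjusted p under 0.05 stood 5 members (2.5%), against 4.49% of all probe sets. Of these, 4 were higher in HO (2% of members, 1.69% of all) and 1 was lower (0.5% of members, 2.81% of all). With the replicate number as a block, which pairs HO with WT, 8 members were at this level, against 5.95% of all. Without HO replicate 1 the count was 8 (4.12% of all probe sets), without HO replicate 3 it was 12 (7.37%), without WT replicate 1 it was 3 (3.96%) and without WT replicate 3 it was 8 (5.14%). The HO arrays did not overlap the WT arrays at 16 members (8%), against 8.88% of all. The members' median log2 difference was -0.04, against -0.005 over all probe sets, and with each array centred on its median it was 0.02, against 0.05.

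In the values that follow, each group's arrays are given in the order of replicate numbers 1, 2 and 3. Slc37a4 had intensities of 1680.3, 1476 and 1369.5 in HO, 1163, 1357 and 1404 in HE and 1069.5, 1142 and 1215 in WT. All HO arrays lay above all WT arrays, and the HE arrays overlapped both groups. HO was at 1.32 times WT, and the log2 difference was 0.40 ± 0.13 (± SE, 3 arrays in each group, here and below), with a 95% interval of 0.10 to 0.69.

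Slc1a4 had 3 probe sets, of which 1 was at an unadjusted p under 0.05. At that probe set, 1423549_at, the intensities were 1115, 1041 and 1163 in HO, 1007, 784 and 943 in HE and 627, 679 and 1021 in WT. The HO arrays lay close together and just above the highest WT array, replicate 3. The log2 difference was 0.55 ± 0.18, or 1.46 times WT. The other probe sets of the gene gave -0.07 ± 0.16 and -0.19 ± 0.17, neither at that level.

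Slc43a3, with 1 probe set, had 6697, 7364 and 6483 in HO, 5609, 9145 and 7261 in HE and 3791, 6084 and 4980.5 in WT. Every HO array was above every WT array, while HE replicate 1 lay below WT replicate 2. The log2 difference was 0.49 ± 0.20 in HO and 0.57 ± 0.20 in HE. Replicate number 2 was the highest array in every genotype. With the replicate number as a block the unadjusted p for HO against WT was 0.00716, against 0.0343 without it (limma).

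Slc19a1 had 3 probe sets. At 1448132_at the intensities were 629, 620.4 and 584 in HO, 704, 646 and 691 in HE and 403, 606 and 453 in WT. WT replicate 2 lay within the HO range and the other WT arrays below it, and all HE arrays lay above all others. The log2 differences were 0.35 ± 0.15 in HO and 0.50 ± 0.15 in HE. At 1420138_at they were 0.15 ± 0.18 and 0.17 ± 0.18, in the same direction, and the third probe set was below the filter.

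Of the carriers lower in HO, Slc18a1 had the lowest p. Its intensities were 626, 449 and 598 in HO, 655, 614 and 658 in HE and 889, 801 and 588 in WT, with WT replicate 3 inside the HO range. The log2 difference was -0.44 ± 0.18 in HO and -0.22 ± 0.18 in HE. Slc25a30, a mitochondrial carrier described in kidney, had 665, 1078 and 663 in HO at 1450018_s_at, 705, 762 and 863 in HE and 1069, 1038 and 992 in WT. All HE arrays lay below all WT arrays, and HO replicate 2 stood with the WT arrays. The log2 difference was -0.40 ± 0.18 in HO, while the other probe sets tested for this gene gave 0.10 ± 0.15 and -0.06 ± 0.21.

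Several further carriers filled the ranking in HO, again as values. Higher were the zinc importer Slc39a6 (0.28 ± 0.14, with -0.16 ± 0.14 at its other probe set), the peroxisomal cofactor carrier Slc25a17 (0.24 ± 0.13), Slc22a23 of the organic ion family (0.31 ± 0.16), Slc7a6 (0.39 ± 0.22), the large neutral amino acid carrier Slc7a5 (0.33 ± 0.19) and the sodium bicarbonate cotransporter Slc4a5 (0.30 ± 0.18). For Slc39a6, Slc25a17 and Slc4a5 the HO arrays did not overlap the WT arrays. Lower were the haem transporter Slc48a1 (-0.28 ± 0.14, other -0.18 ± 0.15), Slc22a26 of the organic anion family (-0.27 ± 0.14), the taurine transporter Slc6a6 (-0.41 ± 0.23, other -0.14 ± 0.22) and the fructose transporter Slc2a5 (-0.31 ± 0.17). So were Slc45a2, a melanosomal transporter (-0.30 ± 0.18), Slc45a3 (-0.31 ± 0.19) and the Golgi carrier of UDP-N-acetylglucosamine Slc35a3 (-0.29 ± 0.17, but 0.32 ± 0.26 at its other probe set). Slc25a5, an exchanger of ADP and ATP in the inner mitochondrial membrane, had 8 probe sets, of which 1438546_x_at gave -0.40 ± 0.18. Its other 7, several of them also of the _x_at kind, lay between -0.11 and 0.12. Probe sets of this kind can bind related sequences, and the part of such binding here was not tested.

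With 1 transgenic allele, again no carrier passed the test. The genes of lowest p were Slc19a1, Slc7a6, Slc43a3, Slc38a2 and Slc39a6 (higher), and Slc15a2 and Slc25a30 (lower). The HE and HO groups were set against the same WT arrays, so the values of both comparisons for a gene are not independent. The lowest adjusted p among members was 0.9997 (limma), with 0 members and 0% of all probe sets past 0.05. At an unadjusted p under 0.05 stood 7 members (3.5%), against 3.11% of all. Of these 5 were higher in HE (2.5%, against 1.19% of all) and 2 lower (1%, against 1.92% of all). Without HE replicate 1 the count was 11 (5.5% of members, 4.23% of all) and without WT replicate 3 it was 13 (6.5% of members, 3.99% of all). The groups did not overlap at 15 members (7.5%), against 7.7% of all. The median log2 difference was -0.002 over the members and -0.007 over all probe sets.

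Slc7a6 exchanges cationic for neutral amino acids as a partner of the heavy chain encoded by Slc3a2. At 1433467_at it had 791, 477 and 815 in HO, 866, 737 and 852 in HE and 415, 514 and 635 in WT. All HE arrays lay above all WT arrays, and HO replicate 2 lay among the WT values. HE was at 1.59 times WT, a log2 difference of 0.67 ± 0.22 with a 95% interval of 0.19 to 1.15. The second probe set, 1460541_at, gave 0.22 ± 0.17. The heavy chain Slc3a2 itself was at 0.19 ± 0.13 in HE and 0.03 ± 0.13 in HO. The other light chains tested were Slc7a5 (0.21 ± 0.19 in HE), Slc7a7 (0.18 ± 0.12) and Slc7a10 (-0.0024 ± 0.17).

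Slc38a2, a sodium-coupled carrier of neutral amino acids that many cell types raise when amino acids are scarce, had 1 probe set that was tested. Its intensities were 7017, 3892 and 5352 in HO, 7881, 6736 and 6069 in HE and 4195, 4428 and 5669 in WT. All HE arrays exceeded all WT arrays, and the HO arrays overlapped both groups. The log2 difference was 0.54 ± 0.21 in HE and 0.16 ± 0.21 in HO. Without HO replicate 2, the lowest of the HO arrays, the value in HO was 0.38.

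Slc15a2 is the proton-coupled peptide transporter of alveolar type II and airway cells. At 1424730_a_at it had 1285, 1226 and 1430.1 in HO, 1135, 928 and 1287 in HE and 1613, 1355 and 1594 in WT. Every HE array lay below every WT array, and the HO arrays overlapped both. HE was at 0.73 times WT, a log2 difference of -0.45 ± 0.15, and HO at -0.21 ± 0.15 on the same scale. The other probe set, 1417600_at, gave -0.07 ± 0.17 in HE and 0.04 ± 0.17 in HO, neither at an unadjusted p under 0.05.

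Slc39a6 had 2464, 3025 and 2426 in HO, 2565, 2900.1 and 2589 in HE and 1964, 2239.8 and 2289 in WT at 1424674_at, and all 6 transgenic arrays lay above all WT arrays. The log2 differences were 0.28 ± 0.14 in HO and 0.31 ± 0.14 in HE. The second probe set of the gene gave -0.16 ± 0.14 and -0.08 ± 0.14, with the opposite sign. Further values higher in HE were those of the thiamine transporter Slc19a2 (0.33 ± 0.17), Slc35a5 and Slc35a4 of the nucleotide sugar family (0.27 ± 0.14 and 0.20 ± 0.12), the potassium chloride cotransporter Slc12a4 (0.26 ± 0.14) and Slc66a2 (0.33 ± 0.18, with 0.0024 ± 0.17 and -0.12 ± 0.15 at its other probe sets). The other probe set tested for Slc35a4 gave 0.11 in HE. Lower in HE were Slc6a17 of synaptic vesicles (-0.31 ± 0.15), the sulfate carrier Slc26a2 (-0.30 ± 0.15, but 0.14 ± 0.23 at its other probe set), Slc11a1, a metal transporter of macrophage phagosomes (-0.34 ± 0.17), Slc22a18 (-0.28 ± 0.15) and Slc2a5 (-0.30 ± 0.17). Values of similar size were found for the lysosomal carriers Slc46a3 (-0.27 ± 0.15) and Slc29a3 (-0.31 ± 0.18) and for Slc48a1 at 1450409_a_at (-0.26 ± 0.15). The other Slc48a1 probe set, which had the larger difference in HO, gave -0.07 in HE.

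The HO and HE groups were set against each other to ask whether a second transgenic allele was accompanied by further differences. The leading values were those of Slc26a2 and Slc25a20, higher in HO, and of Slc25a5, Slc15a3 and Slc22a12, lower in HO. No carrier passed an adjusted p of 0.05 (lowest adjusted p = 0.9998, limma), nor did any other probe set (0%). At an unadjusted p under 0.05 were 5 members (2.5%), against 2.56% of all probe sets. Of these 2 were higher in HO (1%, against 1.16% of all) and 3 lower (1.5%, against 1.4% of all). The groups did not overlap at 14 members (7%), against 6.66% of all, so these counts were close to the background. The count of 5 became 1 without HO replicate 2 (1.95% of all probe sets), 8 without HO replicate 3 (4.87%) and 8 without HE replicate 1 (3.88%). With HO replicate 2 counted as HE, as its description would have it, the count was 2 (2.24% of all).

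Slc26a2 at 1427195_at had 1557, 1702 and 1456 in HO and 1278, 1301 and 1122 in HE, with WT at 1821, 1412 and 1366. The HO arrays lay above all HE arrays, by a log2 difference of 0.35 ± 0.15, and overlapped WT. Slc25a20, the mitochondrial carnitine and acylcarnitine carrier, had 1185, 1139.6 and 1064 in HO and 1103, 850.0 and 603 in HE at 1423109_s_at, with WT at 1046, 1016 and 898. HE replicate 3 was the lowest array, and the groups overlapped. The difference was 0.45 ± 0.19, against -0.03 ± 0.34 at the other probe set. The lysosomal peptide and histidine carrier Slc15a3 had 746, 925 and 812 in HO and 941, 1099.8 and 1240.1 in HE, with WT at 963, 1236 and 818, a difference of -0.40 ± 0.17 between groups that did not overlap. Other values were those of Slc25a5 at 1438546_x_at (-0.43 ± 0.18), the urate carrier Slc22a12 (-0.37 ± 0.16), Slc19a2 (-0.35 ± 0.17) and the UDP-galactose carrier Slc35a2 (-0.27 ± 0.14). On the higher side stood Slc11a1 (0.36 ± 0.17), the sugar transporter Slc2a10 (0.26 ± 0.12) and the fatty acid carrier Slc27a4 (0.34 ± 0.17).

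Taking both transgenic groups against WT placed Slc19a1, Slc43a3, Slc7a6, Slc37a4, Slc39a6 and Slc1a4 on the higher side and Slc25a30 and Slc15a2 on the lower. These were the 8 members at an unadjusted p under 0.05 (4%), against 4.19% of all probe sets. The 6 higher made 3% of members, against 1.64% of all, and the 2 lower 1%, against 2.55% of all. None passed an adjusted p of 0.05 (lowest adjusted p = 0.9997, limma), and no probe set did (0%). Without WT replicate 1, the lowest WT array for Slc19a1, Slc43a3, Slc7a6, Slc37a4, Slc39a6 and Slc1a4 alike, the count was 3 (3.17% of all). All 6 transgenic arrays lay apart from all WT arrays at 2 members (1%), against 2.08% of all. One was Slc39a6 and the other was Slc35a4 at 1456013_x_at, with 855, 912 and 898 in HO, 850.0, 872 and 1011 in HE and 761, 822 and 793 in WT. The other probe set tested for Slc35a4, 1416110_at, gave a log2 difference from WT of -0.02 in HO and 0.11 in HE. For both groups together against WT, the differences were 0.42 ± 0.13 for Slc19a1, 0.53 ± 0.18 for Slc43a3, 0.53 ± 0.19 for Slc7a6 and -0.41 ± 0.16 for Slc25a30. An F test over the 3 genotypes had 0 members and 0% of all probe sets past an adjusted p of 0.05 (lowest adjusted p among members 0.9998, limma). At an unadjusted p under 0.05 it held 6 members (3%), against 3.09% of all. That count was 0 without WT replicate 1 (2.65% of all), 3 without WT replicate 2 (3.32%) or HE replicate 3 (3.48%) and 11 without HO replicate 3 (4.88%).

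**Figure D2:**
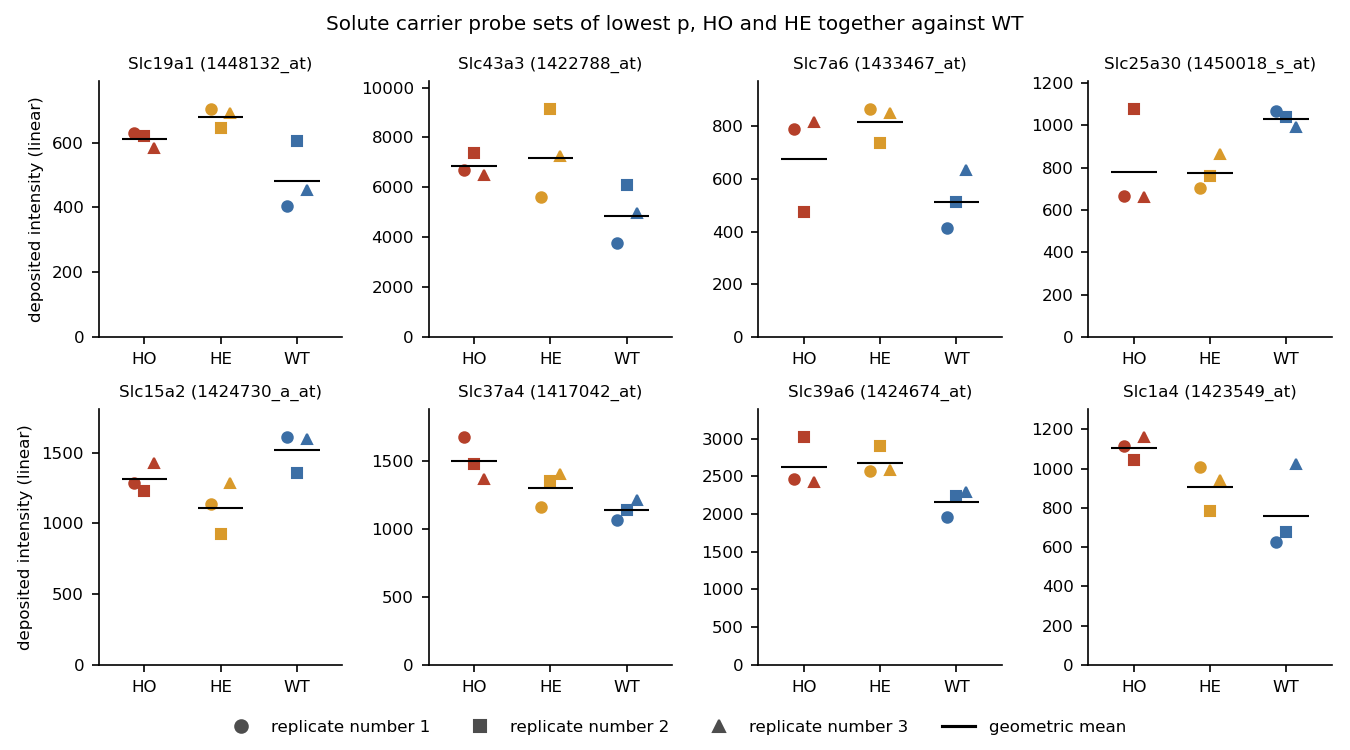
Deposited linear intensity (vertical axis) of the 8 solute carrier probe sets of lowest p for HO and HE together against WT, with HO in red, HE in orange and WT in blue. Points are single arrays, with the shape giving the replicate number, and bars are geometric means of 3 arrays. For Slc39a6 all 6 transgenic arrays lie above the WT arrays, and for Slc7a6 HO replicate 2 lies among the WT arrays.

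In carrier classes with 5 or more tested probe sets the values spread to both sides of 0. No class held a member past the adjusted threshold in any comparison with WT. The amino acid and peptide carriers had a median log2 difference of 0.03 in HO and 0.04 in HE over 32 probe sets of 19 genes, with a range of -0.27 to 0.55 in HO and -0.45 to 0.67 in HE. At an unadjusted p under 0.05 were Slc1a4 and Slc43a3 (2 higher) in HO, and Slc7a6, Slc43a3 and Slc38a2 (3 higher) and Slc15a2 (1 lower) in HE. Over all probe sets 1.69% were higher and 2.81% lower at this level in HO, and 1.19% higher and 1.92% lower in HE. Slc43a3 is counted here by its family, although it is known as a carrier of purine bases. The 50 probe sets of 28 genes of the mitochondrial family had medians of -0.03 in HO and 0.02 in HE, with 23 and 26 probe sets above 0. The peroxisomal carrier Slc25a17 is counted with this family. One mitochondrial probe set, of Slc25a30, was at that level in HE and none in HO. The 29 probe sets of 22 metal carriers had medians of -0.09 in HO and -0.04 in HE, with 11 and 14 above 0. The 18 probe sets of 12 vitamin, choline, haem and urea carriers had -0.10 and -0.07, with 4 above 0 in each group, and the leading gene Slc19a1 went against the class.

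Among smaller classes, 15 probe sets of 13 sugar carriers had medians of -0.10 in HO and -0.05 in HE, with 4 and 5 above 0. The 9 probe sets of 5 nucleotide sugar carriers had medians of -0.03 in HO and 0.12 in HE, with 3 and 8 above 0. In HO minus HE the same 9 probe sets had a median of -0.13, with 1 above 0. The 7 probe sets of the bicarbonate and anion families had medians of 0.05 in HO and -0.02 in HE. The 5 of cation and chloride cotransport had 0.06 and 0.09. For scale, the same medians over all probe sets were -0.005 in HO and -0.007 in HE, and centring each array on its median moved these to 0.05 and 0.03.

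**Figure D3:**
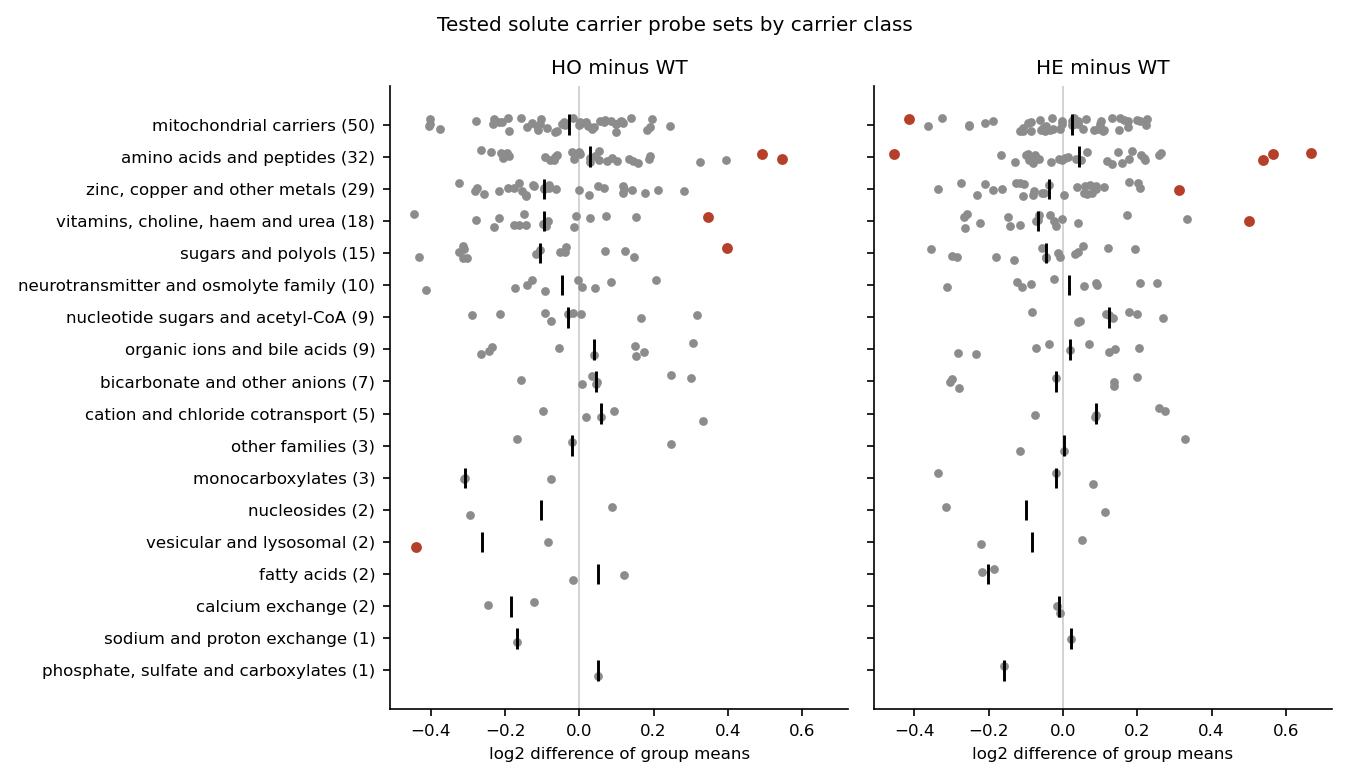
Log2 difference of group means (horizontal axis) for each of the 200 tested solute carrier probe sets, by carrier class, for HO minus WT (left) and HE minus WT (right). Points are probe sets, black ticks class medians and red points an unadjusted p under 0.05. The class medians of the 50 mitochondrial carrier probe sets lie at -0.03 and 0.02, and points of most classes fall on both sides of 0.

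A list of 20 carriers described in lung was followed without a cut on p. It was drawn up with earlier results of these data known. Of the 20 carriers, 17 were measured and 14 had a probe set that passed. The anion carriers closest to the known work of CFTR were Slc26a4, the chloride and bicarbonate exchanger pendrin, the anion exchanger Slc4a2 and the sodium bicarbonate cotransporter Slc4a4. Slc26a4 had 913, 523 and 568 in HO, 566, 449.5 and 566 in HE and 633, 734 and 577 in WT. HO replicate 1 stood above all other arrays and all HE arrays lay below all WT arrays. The log2 differences were 0.01 ± 0.21 in HO and -0.30 ± 0.21 in HE, and without HO replicate 1 the value in HO was -0.24. Slc4a2 had 2116, 2248 and 2044 in HO, 2241, 2060.1 and 1891 in HE and 2263, 1791 and 2234 in WT, with overlapping groups. Its differences were 0.03 ± 0.14 and -0.02 ± 0.14, and those of Slc4a4 were 0.05 ± 0.18 and 0.20 ± 0.18 at the 1 of its 4 probe sets that passed. The 95% interval for Slc4a2 in HO was -0.26 to 0.33. The potassium chloride cotransporter Slc12a7 gave -0.10 ± 0.14 and 0.02 ± 0.16 in HO and 0.09 ± 0.14 and -0.08 ± 0.16 in HE at its 2 probe sets.

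The zinc importers of the list lay below WT at 3 of 4 probe sets in HE and at all 4 in HO, none at an unadjusted p under 0.05. Slc39a8, which carries zinc and manganese into lung epithelium, had 2271, 1843 and 3925 in HO, 2411, 2299 and 3003 in HE and 2963, 2907 and 3423 in WT at 1448482_at. HO replicate 3 was the highest array and HO replicate 2 the lowest. The log2 differences there were -0.28 ± 0.24 in HO and -0.28 ± 0.24 in HE, and at 1416832_at -0.22 ± 0.17 and -0.19 ± 0.17. Without HO replicate 3 the value at 1448482_at in HO was -0.59. Slc39a14 gave -0.14 ± 0.15 and -0.28 ± 0.25 in HO and -0.11 ± 0.15 and 0.09 ± 0.25 in HE. At 1427035_at, WT replicate 2 (1295) was the highest of all arrays, and without it the value in HO was 0.047.

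Slc15a2, Slc38a2, Slc7a5 and Slc3a2, described above, are also on the list. The values of Slc2a1, Slc29a1, Slc6a14 and Slc16a3 were not at an unadjusted p under 0.05 in HO or HE against WT. The glucose transporter Slc2a1 was at -0.05 ± 0.14 and -0.12 ± 0.15 in HO and at -0.05 ± 0.14 and -0.05 ± 0.15 in HE at the 2 probe sets that passed. The nucleoside transporter Slc29a1 was at 0.09 ± 0.18 and 0.11 ± 0.18. Slc6a14, a sodium and chloride dependent carrier of amino acids of broad range, was at 0.21 ± 0.24 and -0.09 ± 0.25 in HO and at 0.21 ± 0.24 and 0.25 ± 0.25 in HE. The lactate exporter Slc16a3 was at -0.31 ± 0.22 and -0.02 ± 0.22. Below the filter on all their probe sets were Slc5a1, Slc7a11 and the serotonin transporter Slc6a4, which had 538, 281 and 408 in HO, 224, 141 and 328 in HE and 40.8, 432 and 484 in WT. The groups of Slc6a4 overlapped, and WT held both the lowest array and one of the highest.

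Replicate numbers were compared with genotype in the fit, and 23 member probe sets were at an unadjusted p under 0.05. The numbers 1, 2 and 3 each held 1 array of every genotype, and their source names began with 3, 9 and 11. What the arrays of a number shared is not in the labels. The 23 members came from 21 genes and made 11.5% of members, against 12% of all probe sets. No member passed an adjusted p of 0.05 (lowest adjusted p = 0.310, limma), against 2 of 13576 probe sets (0.0147%). Without HO replicate 1 the count was 15 (7.5% of members, 10.2% of all).

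Slc6a14 was lowest in replicate number 1 at both probe sets. At 1420503_at it had 1102, 1815 and 2059 in HO, 1309.8, 1756 and 1789.8 in HE and 1207, 1260.3 and 1762 in WT, and number 1 was the lowest array of every genotype. Number 2 was at 1.32 times number 1 and number 3 at 1.55 times. At 1420504_at these ratios were 1.57 and 1.32. Slc25a26, which imports S-adenosylmethionine into mitochondria, had 373, 480.2 and 488 in HO, 342, 659 and 541 in HE and 401, 653 and 494 in WT. Number 1 was again the lowest in every genotype. The copper transporter Slc31a2 at 1453721_a_at had 694, 1234 and 1776 in HO, 801, 1943 and 1176 in HE and 769.8, 901 and 1709.8 in WT, with number 1 lowest in each group. Its other probe set did not share this pattern, with ratios of 0.916 and 1.04. The zinc transporter family member Slc30a9 had its highest array in number 2 in each genotype, at 1.44 times number 1.

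Several carriers of mitochondria and metabolites had their highest mean in number 1. Slc25a20 at 1423108_at had 1697, 1242 and 1179.9 in HO, 1977, 743 and 1795 in HE and 2143, 1277 and 1421 in WT, with number 1 the highest of each genotype. The dicarboxylate carrier Slc25a10 at 1416955_at had 1295, 1001 and 1481 in HO, 1635, 767 and 1079 in HE and 1706, 1064 and 1466 in WT, with number 2 the lowest of each. Slc16a11 of the monocarboxylate family was at 0.668 and 0.766 times number 1 in numbers 2 and 3, the mitochondrial glutathione carrier Slc25a39 at 0.662 and 0.808 times at 1453111_a_at, and the sulfate carrier Slc26a2 at 0.658 and 0.913 times at 1421145_at. Beside these values, the summed intensity of the 5 adipocyte markers on the array, of 7 in the list, ran from 3585 to 4894 in number 1, from 1697 to 3013 in number 2 and from 3484 to 3534 in number 3. The sum over all 5 brown adipocyte markers ran from 1608 to 1789 in number 1, from 1066 to 1205 in number 2 and from 1016 to 1098 in number 3. No marker of either list was at the floor on every array. Only 3 of the adipocyte and 1 of the brown adipocyte markers passed the filter. Ciliated cell markers also summed higher in number 1 (23944 to 25090) than in number 2 (18712 to 20681) and number 3 (20603 to 20976). Cardiac muscle sums were 26488 to 41747 in number 1, 23532 to 29256 in number 2 and 23638 to 30257 in number 3. Sums of the remaining lists in number 1 overlapped those in number 2 or 3. The part of any of these cells in the values of these carriers was not tested.

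**Figure D4:**
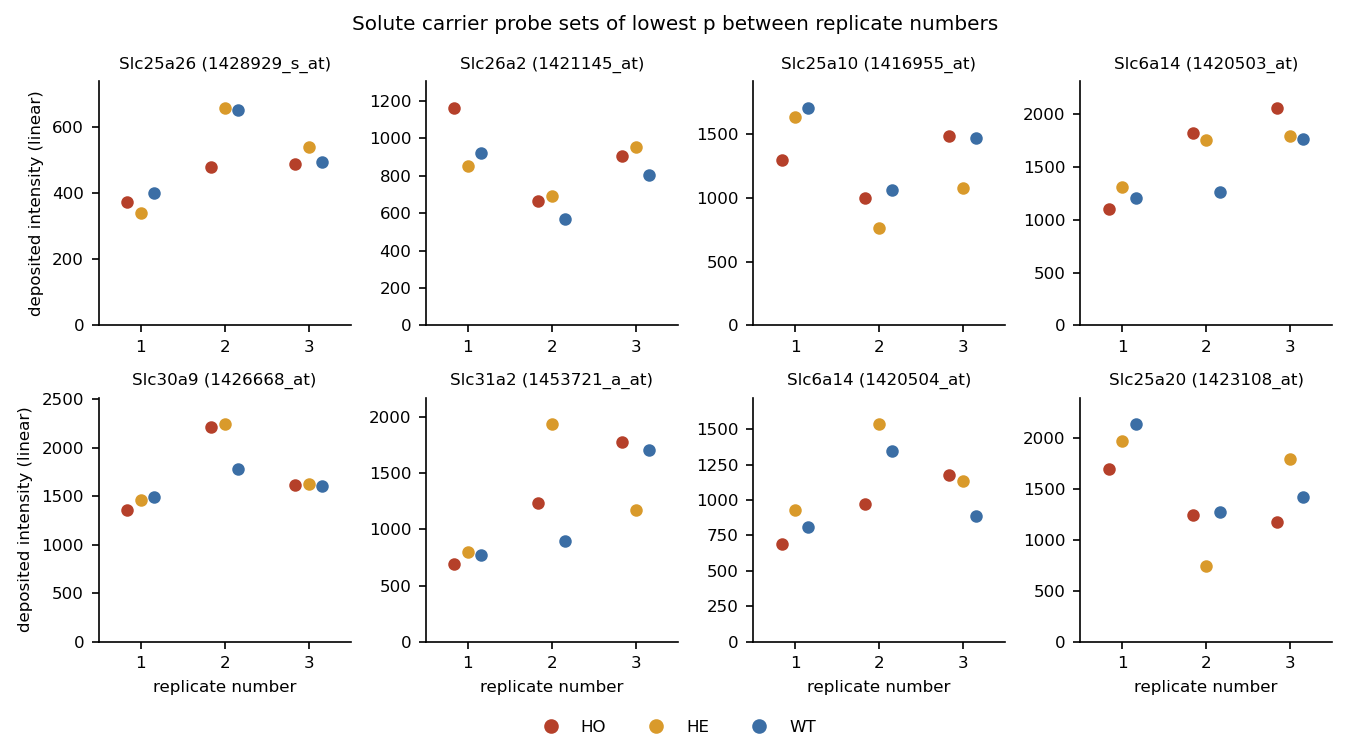
Deposited linear intensity (vertical axis) of the 8 solute carrier probe sets of lowest p between replicate numbers, by replicate number (horizontal axis), with HO in red, HE in orange and WT in blue; each point is 1 array. For Slc6a14, Slc25a26 and Slc31a2 the arrays of number 1 are the lowest of each genotype, and for Slc25a20 they are the highest.

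Probe sets of the same gene often gave different values. In 44 carrier genes 2 or more probe sets passed, which gave 100 pairs. The correlation of a pair over the 9 arrays, which share their scaling and genotypes, had a median of 0.24. It exceeded 0.5 in 22 pairs and was below 0 in 31. The log2 differences of a pair had opposite signs in 49 pairs for HO against WT and in 45 for HE against WT, and in no pair were both at an unadjusted p under 0.05 in either comparison. Genes with many probe sets weigh most in these counts, as Slc25a5 with 8. The members' quartiles in HO against WT, -0.16 and 0.09, lay within the typical 95% interval of 0.37 on either side. Opposite signs can thus occur where the probe sets of a gene do not differ. The pair of Slc2a3, a glucose transporter of neurons and white blood cells, correlated most closely at 0.91, followed by a pair of Slc25a5 at 0.75 and the pair of Slc6a6 at 0.74. Probe sets of Slc38a10, chosen after its values were seen, and Slc44a1 had the lowest values, -0.81 and -0.73. The differences named above for Slc1a4, Slc15a2, Slc39a6 and Slc25a30 were each seen at 1 probe set and were not shown for the gene as a whole. Likewise, the transgenic arrays of Slc35a4 lay apart from all WT arrays at 1 probe set only. Whether probe sets of a gene differed from each other was not tested.

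The Slc2a3 probe sets were highest on the arrays with most neutrophil marker signal. At 1437052_s_at the intensities were 1424, 901 and 1378 in HO, 1341, 1511 and 2752 in HE and 1460.3, 2124 and 1397 in WT. At 1455898_x_at they were 882, 663 and 663 in HO, 648, 836 and 1541 in HE and 858, 1114 and 778 in WT. HE replicate 3 was the highest and WT replicate 2 the next at both. The summed intensity of 7 neutrophil markers, of 8 in the list, ran from 8430 to 25219 in HO, from 11783 to 60709 in HE and from 10349 to 45943 in WT, and was highest on HE replicate 3 and next highest on WT replicate 2. No marker was at the floor on every array, and 5 of the 7 passed the filter. HE replicate 3 was also the highest array for Slc6a6 at 1449751_at (969), for Slc15a3 (1240.1) and for Slc16a3 (881). The differences of Slc2a3 were -0.55 ± 0.28 and -0.37 ± 0.28 in HO minus HE, and the part of neutrophils in them was not tested.

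Red cell carriers varied from array to array without order by genotype. Slc4a1, the anion exchanger of the red cell membrane, chosen after its values were seen, lay below the filter. At 1416464_at it had 552, 226 and 669 in HO, 93.4, 410.1 and 812 in HE and 497, 143 and 501 in WT. The groups overlapped fully, and HE held both the lowest and the highest array. The mitochondrial iron importer Slc25a37, likewise chosen after its values were seen, had 2623, 2467 and 3244 in HO, 1995, 2322 and 3910.0 in HE and 3171, 2047 and 3005 in WT. The summed intensity of 3 erythroid markers, of 7 in the list, ran from 8882 to 16535 in HO, from 6922 to 17068 in HE and from 5695 to 12489 in WT. It was highest on HE replicate 3 and HO replicate 3, the arrays on which both carriers were highest. Only 1 of the 3 markers passed the filter. The part of red cells or blood in these values was not tested.

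**Figure D5:**
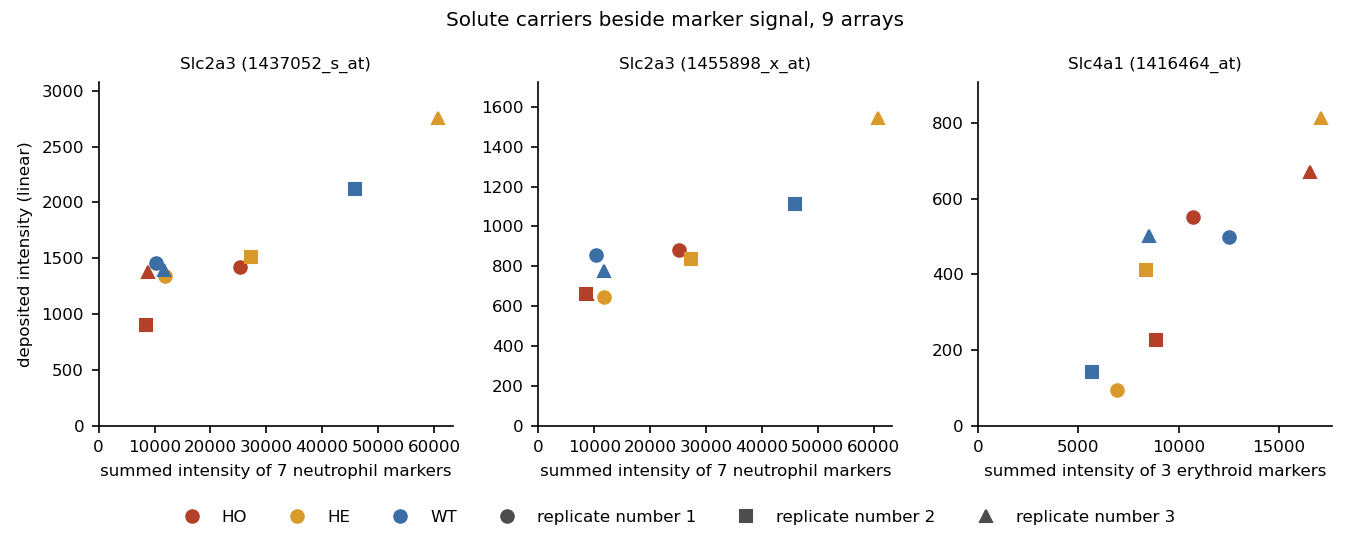
Deposited linear intensity (vertical axes) of both tested Slc2a3 probe sets and of Slc4a1 at 1416464_at against the summed linear intensity of 7 neutrophil or 3 erythroid markers (horizontal axes), with HO in red, HE in orange and WT in blue, for 9 arrays. Shapes give the replicate number. HE replicate 3 is the highest array on both axes of each panel.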

How the data were processed

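Each array has a single linear intensity for each of 22690 probe sets in the table the authors deposited. Its values show that the authors had brought all arrays to a common mean, computed without the lowest and highest 2% of values. Which software summarised the probes is not stated in the labels. Before log2 conversion, intensities under the 5th percentile (25.5) were set to that value. The filter dropped 64 control probe sets and every probe set whose mean log2 lay below the 40th percentile (8.9), and 13576 remained. Of all probe sets, 20380 had 1 gene symbol in the platform annotation. Group means were fitted to all 9 arrays in limma 3.58.1, using lmFit and eBayes under R 4.3.3, with 6 residual degrees of freedom before moderation, and p-values were adjusted by Benjamini-Hochberg over the 13576. Replicate numbers were compared by an F test with genotype in the fit. Differences are log2 values with moderated standard errors, and n is 3 arrays per group.

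Replicate numbers were taken from the titles. Deviations of same-numbered arrays from their group means correlated at 0.19, 0.14 and 0.28 between HO and WT, which met the criterion for pairing (above 0.1 in each pair). Between HE and WT they correlated at 0.30, 0.05 and 0.04, and between HO and HE at 0.16, 0.15 and 0.03, which did not. The standard errors, intervals and ranks of single genes, also for HO against WT, come from the fit without the block. A p-value with the block is printed for Slc43a3 alone.

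Named genes were the 10 of lowest p in each direction for HO and for HE against WT, 5 in each direction for HO minus HE and for both transgenic groups against WT, 12 for replicate numbers, the 2 of lowest p from each carrier class with at least 5 tested genes, and 20 lung carriers. Members, lists, classes and alternatives were chosen with earlier results of these data known. Promoter windows came from RefSeq. The alternatives were other normalizations, filters, floors and variance models, array weights, 1 probe set per gene, the replicate number as a block, HO replicate 2 counted as HE, a fit of only the arrays compared, and each array left out. The fit was also run on simulated data over the 13576 probe sets, with 200 changed in HO and another 200 changed in replicate number 2. At an adjusted p under 0.05, the fit for HO minus WT called 14.4% of simulated log2 changes of 0.5, 80% at a size of 1 and 98.4% at 1.5. Simulated arrays were otherwise drawn independently, with normal spread. Changes of 0.5 to 2 were mixed in equal numbers, and the rates hold for that mix only.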

Additional observations from a re-analysis of the deposited data

How the results depend on the processing

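No solute carrier passed an adjusted p of 0.05 in any of the 6 comparisons under any of the alternatives run, so no call changed. Counts at an unadjusted p under 0.05 moved. Over all alternatives they ran from 3 to 15 for HO minus WT, from 4 to 16 for HE minus WT, from 1 to 8 for HO minus HE, from 3 to 19 for both groups minus WT, from 0 to 11 for the F test and from 14 to 28 between replicate numbers. The highest counts against WT came without the filter (15, 16 and 19), where 364 members entered and 5.41%, 4.38% and 5.26% of all probe sets stood at this level. With the filter at the 60th percentile they were 3, 5 and 4 (4.18%, 2.87% and 3.89% of all). With the replicate block, 8 members stood at this level in HO minus WT, 12 in HE minus WT, 7 in HO minus HE, 9 in both groups minus WT and 9 in the F test. All probe sets moved too, to 5.95%, 4.35%, 3.49%, 5.69% and 4.33% in the same 5 comparisons. With only the arrays compared the counts were 3 in HO minus WT and 2 in HO minus HE (4.05% and 2.53% of all). The members' median log2 difference stayed between -0.07 and 0.04 in comparisons with WT.

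Of 80 differences of ranked genes and lung carriers, 1 changed sign under an alternative. The ranked genes were chosen for low p in these same data, so their signs were likely to hold. For lung carriers, only differences larger than their standard error were counted as changing sign. Slc26a4 in HO, which changed sign without HO replicate 1, was thus not counted. The count is therefore no measure of how stable the differences are. Slc39a14 at 1427035_at was at -0.28 in HO minus WT and ranged from -0.45 to 0.047 over the arrays left out. The cause was not tested. With 3 arrays a group, differences of 0.37 (log2) or less lay within the 95% interval of a typical member. Differences of probe sets below the filter are not reported.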
